A study of Homo sapiens with 12 samples.

Results

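Metalloproteases of the ADAM, ADAMTS and MMP families and their TIMP inhibitors were followed in transcriptomes of cancer cells that had been evolved under hydroxychloroquine (HCQ), a weak base that accumulates in lysosomes and blocks autophagy. Members were taken by symbol: every gene named ADAM, ADAMTS, ADAMTSL, MMP or TIMP followed by a digit, without pseudogenes (8) and antisense or opposite-strand symbols (8). This left 71 of the 28278 genes counted. Of these, 19 reached 1 CPM (counts per 1000000 counts of the library) in at least 3 of the 12 libraries and are described in detail, and 52 did not.

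ADAMs are membrane-anchored proteases that cut the outer parts of other surface proteins, releasing growth factors, cytokines and adhesion molecules, and some family members have lost the catalytic site and act in binding only. ADAMTS enzymes are secreted and cut matrix proteins, ADAMTS-like proteins share their other domains without the protease, and MMPs, secreted or held at the membrane, cut collagens, other matrix proteins and other proteases. TIMPs bind the active site of these enzymes, and carcinoma cells commonly make matrilysin and membrane-type MMPs themselves while fibroblasts and leukocytes supply many of the secreted ones.

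The 12 libraries were labelled OVCAR3, an ovarian cancer line, or CCL218, a colorectal cancer line. HCQ-evolved cells of each line had been through 15 pulse-chases, each with 48 h of drug, followed by 7 days of growth without drug, and were at passage 15. Control cells of the same line were passaged without drug and were at passage 19, so HCQ evolution and passage number cannot be told apart. Each group was grown on 1 plate and pooled by position into a left (L), middle (M) and right (R) pool, giving 3 pools in each of the 4 groups. P-values thus measure the spread between pools of a plate.

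Libraries held 31147822 to 59965861 counts. Pools also differed in how long and short transcripts were represented. Across genes, a pool's difference from its line's mean was related to transcript length with Spearman's rho from -0.448 (control CCL218 L) to 0.513 (HCQ-evolved OVCAR3 R). Epithelial markers were at 1 CPM or more in every pool (5 of 5). Of the ovarian list, 4 of 7 genes (PAX8, MUC16, FOLR1 and MSLN) were at 1 CPM or more in every pool under both labels. SOX17 of that list was at 0 counts throughout, and EMX2 and the colorectal KRT20 were at or near 0 under both labels. VIL1 of the colorectal list was at 78.5 to 290.1 CPM under both labels. Across genes, the SD of the log2 difference between the control groups of the lines was 0.42, and it was 0.47 between the OVCAR3 groups, so line names are used here as labels only. Marker levels also differed with the groups, as given here without a test: the colorectal list (8 genes) summed to 226 to 251 CPM in control CCL218, 361 to 423 in HCQ-evolved CCL218, 220.0 to 313 in control OVCAR3 and 92.2 to 158 in HCQ-evolved OVCAR3. The ovarian list, also without a test, summed to at most 69.9 CPM in control OVCAR3 and 65.1 CPM in HCQ-evolved OVCAR3. It summed to 62.9 to 124 CPM in control CCL218 and 104 to 144 CPM in HCQ-evolved CCL218. MSLN made up most of these CCL218 sums, with means of 63.6 CPM in control and 107.5 CPM in HCQ-evolved pools. Its means in OVCAR3 were 14.25 and 6.861 CPM. Between the control groups, PAX8, MUC16 and FOLR1 had lower means in CCL218 than in OVCAR3. Fibroblast markers summed to 0.636 to 3.34 CPM. PTPRC and CD3E, which mark leukocytes, were at or near 0, while LYZ was at 1294 to 2761 CPM. In bulk pools, fewer cells with a transcript and less of it per cell cannot be told apart.

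The stretch of 250 bases upstream of the annotated start is shown for ADAM8 and ADAMTS6, which passed the test in both lines, and for MMP14, whose change differed between the lines. They come from a RefSeq promoter table on GRCh38.p14, in which 16 of the 19 members were matched (all but ADAM9, ADAM28 and TIMP2), and are written 5′ to 3′ on the strand of the gene. Capitals mark matches on either strand to an AP-1 motif (TGANTCA), the core of a hypoxia response element (ACGTG), a GC box (GGGCGG) or a cyclic AMP response element (TGACGTCA). The last 25 bases of the MMP14 stretch lie in annotated exons.
ADAM8, chr10:133276869-133277118, minus strand: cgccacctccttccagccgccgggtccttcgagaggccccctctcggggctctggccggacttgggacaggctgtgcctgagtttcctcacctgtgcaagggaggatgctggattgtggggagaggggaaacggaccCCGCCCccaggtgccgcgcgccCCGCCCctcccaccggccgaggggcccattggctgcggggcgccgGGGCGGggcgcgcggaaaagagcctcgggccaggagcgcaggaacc
ADAMTS6, chr5:65481921-65482170, minus strand: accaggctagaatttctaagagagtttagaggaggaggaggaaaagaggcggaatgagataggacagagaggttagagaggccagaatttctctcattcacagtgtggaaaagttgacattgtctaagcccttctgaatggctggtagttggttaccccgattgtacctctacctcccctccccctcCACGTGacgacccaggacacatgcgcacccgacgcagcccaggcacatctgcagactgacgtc
MMP14, chr14:22836335-22836584, plus strand: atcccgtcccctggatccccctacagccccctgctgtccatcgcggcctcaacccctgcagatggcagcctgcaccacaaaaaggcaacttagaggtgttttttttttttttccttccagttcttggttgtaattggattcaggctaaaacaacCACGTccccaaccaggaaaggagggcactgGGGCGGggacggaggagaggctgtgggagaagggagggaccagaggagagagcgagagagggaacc

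ADAM8 held 3 GC boxes in a stretch of 73.6% G and C. ADAMTS6 held no GC box, and its palindromic CACGTG matched the hypoxia core on both strands. MMP14 held 1 match to that core and 1 GC box. Of 35116 stretches of the same length, 42.6% held a GC box, as did 13 of the 16 members, and 18.5% held the hypoxia core, as did 5 of the 16 (ADAM10, ADAM17, ADAMTS6, MMP14 and TIMP1). The AP-1 motif, found in 6.6% of all stretches, was present in MMP7 alone of the 16, and the cyclic AMP element, found in 1.6%, in 0 of them. All 250 bases of the ADAM15, ADAMTS13 and ADAMTSL5 stretches lie in annotated exons, as do 200 bases of ADAM17, 119 of ADAM10 and 108 of ADAM22. TIMP1 has 28 such bases and MMP7 has 3. This overlap was not measured for the stretches of other genes. These matches describe letters and were not tested for binding.

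Levels among members spanned a wide range, and the abundant transcripts came from an inhibitor, a membrane-type MMP, the matrilysin MMP7 and a few sheddases. On the scale of CPM per kb of exon, which allows genes to be compared, TIMP1 was highest in control OVCAR3 (111.4) and control CCL218 (72.5), followed by MMP15, a membrane-anchored matrix protease, at 43.6 and 41.2. Next in control OVCAR3 came ADAM15 at 19.04, MMP7 at 13.6, ADAM10 at 12.9 and ADAM8 at 12.3 CPM per kb. In control CCL218 MMP7 stood above ADAM15, at 25.1 against 15.8 CPM per kb, and ADAM8 stood at 6.76. ADAM28 was lowest of the 19 in both, at 0.1544 and 0.1497 CPM per kb. The exon length used is that of all annotated exons of a gene together, so genes with many long isoforms, such as ADAM10, are understated.

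**Figure D1:**
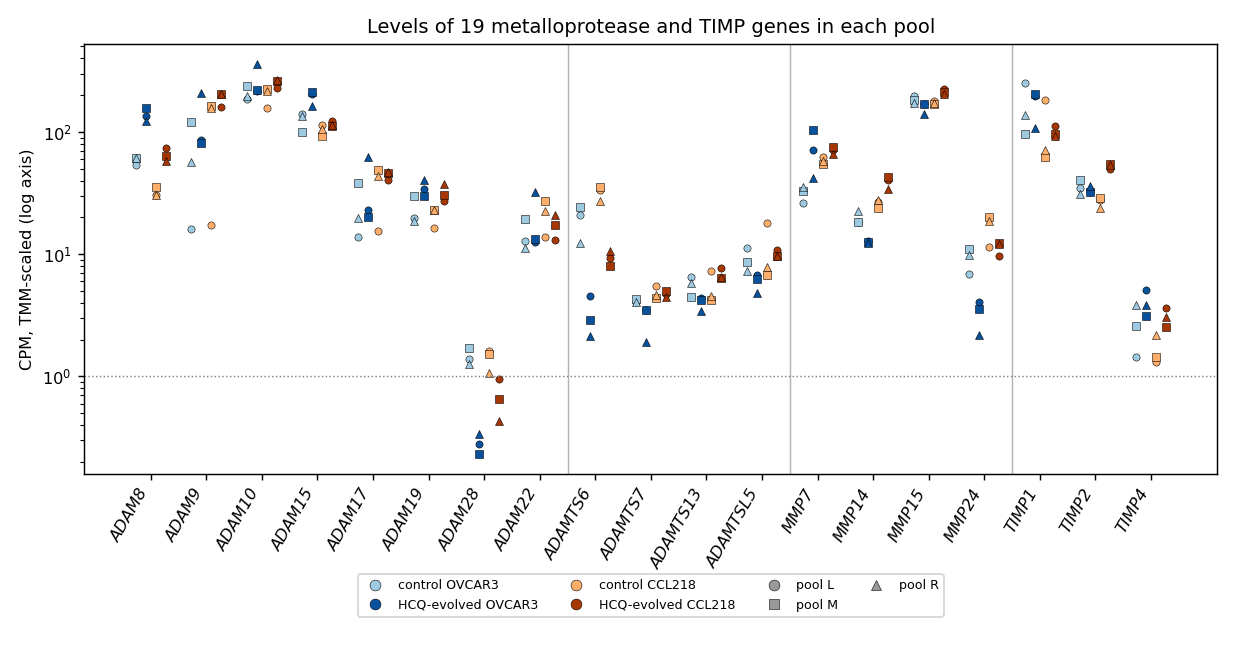
Levels of the 19 detailed members in each of the 12 pools, in TMM-scaled CPM on a log axis, with families separated by vertical lines (ADAM, ADAMTS and ADAMTSL, MMP, TIMP). ADAM10, MMP15 and TIMP1 lie near 100 CPM or above in most pools, ADAM28 lies near the dotted line at 1 CPM in control pools and below it in HCQ-evolved pools, and the pools of ADAM9 lie far apart within control groups.

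Whole functional classes were at or near the floor. Of 3 collagenases (MMP1, MMP8 and MMP13), 2 gelatinases (MMP2 and MMP9), 3 members of the stromelysin class, 7 proteoglycan-cleaving ADAMTS and 3 procollagen N-propeptidases, 0 met the level rule. MMP9 had at most 2 counts in any pool, MMP2 at most 8 counts, and TIMP3, the inhibitor held in the matrix, at most 3 counts. ADAM2, MMP8, MMP11 and MMP17 were at 0 counts in all pools, where the limit that 3 counts allow is 0.05 to 0.0963 CPM per pool. As 78.9% of counts from 1 to 4 were even, a small count may stand for fewer fragments than its number, which was not tested. Of the 52 members below the rule, 18 had 3 counts or fewer in every pool and 40 had 10 or fewer, and the highest count was 68 (MMP25, a membrane-type MMP). Low counts here are not shown to be absence of the transcript.

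The MMP cluster on chromosome 11 (102520508 to 102955732, GENCODE 44 on hg38) holds 9 of the genes, and MMP7 at its edge was the one with a level. MMP10, a stromelysin, had 0, 6 and 4 counts in control CCL218 and 19, 38 and 20 in HCQ-evolved CCL218 pools. MMP1, the interstitial collagenase, had 2, 2 and 10 counts against 15, 17 and 29 in the same groups. In OVCAR3 pools both genes had at most 6 counts. MMP25, encoded on chromosome 16, had 57, 20 and 26 counts in control CCL218 and 8, 8 and 9 in HCQ-evolved CCL218. These genes did not reach the level required for the main test, were picked out after their counts had been seen, and are given as counts. Without the filter, which was an alternative, MMP25 was called in CCL218 (-2.30, adjusted p = 0.0236, edgeR) and MMP10 (adjusted p = 0.0602) and MMP1 (adjusted p = 0.162) were not.

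In OVCAR3, 3 of the 19 members passed edgeR's quasi-likelihood test at an adjusted p under 0.05 over all genes. ADAM8 rose, while ADAMTS6 and ADAM28 fell, in HCQ-evolved against control pools. Among 12204 genes tested, 0.647% were called higher and 1.21% lower. ADAM28 was at the level rule in control pools alone, and 2 of the other 18 members were called, 1 in each direction. The members' median log2 fold change was 0.09 against 0.02 for all genes, and 9 of the 19 had an unadjusted p under 0.05, as did 16.2% of all genes. For 3 members the whole HCQ-evolved group was above the control group, and for 8 it was below, where 13% and 12.7% of all genes were. ADAM28, which could be tested only by being higher in control pools, is counted among these 8 and among the 9, and enters the median.

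In CCL218, 3 of the 19 members passed the same test: ADAM8 and TIMP2 rose and ADAMTS6 fell. Here 3.82% of 12241 genes were called higher and 2.64% lower. The median was 0.28 for the members and -0.02 for all genes, with 9 members at an unadjusted p under 0.05, as were 25.2% of all genes. The whole HCQ-evolved group was above the control group for 8 members and below it for 2 (ADAMTS6 and ADAM28), against 18.6% and 17.3% of all genes. ADAM28, at the level rule in control pools alone here too, is also counted among the 9 and enters the median. Markers of intestinal epithelium stood at other levels in the same groups: CDH17 was at 3.84 ± 1.26 CPM (SD, n = 3) in control and 52.5 ± 6.66 CPM in HCQ-evolved CCL218, GPA33 at 4.77 ± 0.834 and 34.7 ± 2.22 CPM, and CDX2 at 23.2 ± 2.85 and 67.8 ± 4.85 CPM. KRT20 and CDX1 of that list stayed under 1 CPM in every pool. The part of these markers in the changes of members and partners in CCL218 was not tested. Pools of the same plate position deviated together in CCL218, and with a block for plate position 6 members passed, ADAM19, ADAM28 and MMP14 in addition, where 14.2% of all genes did. Of the 6, ADAM28 was at the level rule in control pools alone, so it could be tested only by being higher there.

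**Figure D2:**
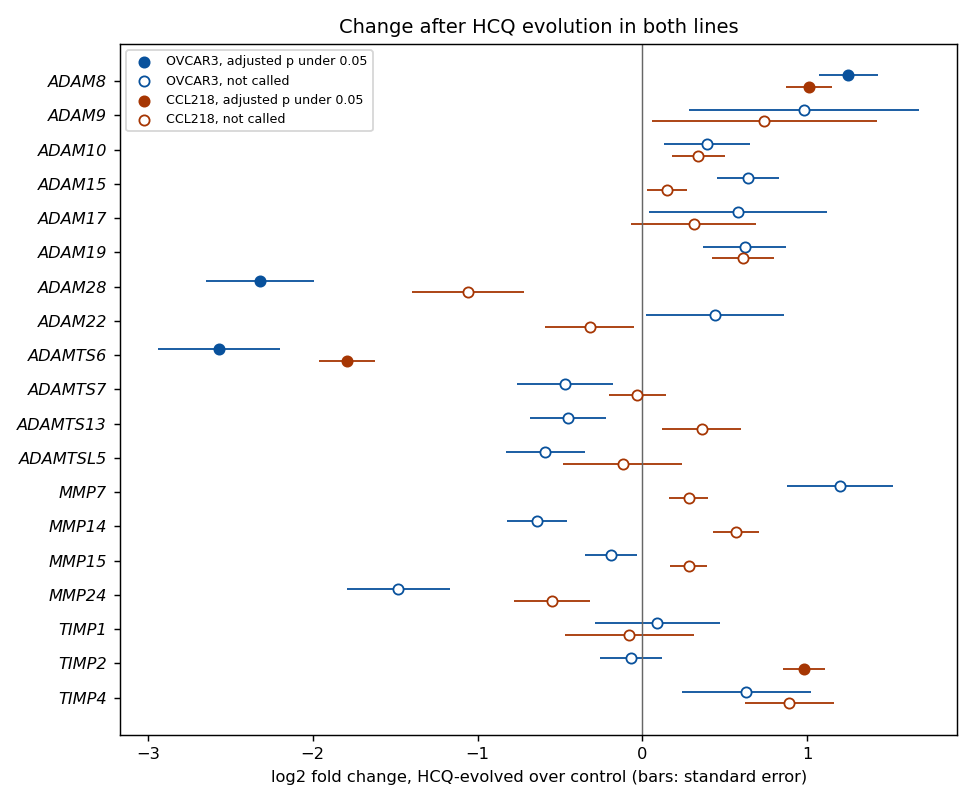
Log2 fold change of the 19 members, HCQ-evolved over control, in OVCAR3 (blue) and CCL218 (brown), with standard errors (SE) as bars and filled points for members with an adjusted p under 0.05 in edgeR. ADAM8 and ADAMTS6 are filled in both lines, ADAM28 in OVCAR3 and TIMP2 in CCL218, and MMP14 lies on opposite sides of 0.

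Among the catalytic ADAMs, ADAM8, a sheddase known from leukocytes and from invasive carcinoma, rose in both lines. It stood at 53.9, 61.4 and 61.1 CPM in the L, M and R pools of control OVCAR3 and at 134.7, 158.3 and 121.9 CPM in HCQ-evolved OVCAR3. In CCL218 it stood at 30.6, 35.4 and 30.5 CPM in control and 73.3, 63.9 and 58.0 CPM in HCQ-evolved pools. The groups did not overlap in either line, and control OVCAR3 overlapped HCQ-evolved CCL218. Its rise in OVCAR3 had a log2 fold change of 1.25 (standard error, SE, 0.18, adjusted p = 0.0223, edgeR), or 2.38-fold. In CCL218 it was 1.01 (SE 0.14, adjusted p = 0.00939, edgeR), a rise of 2.02-fold.

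The change of ADAM8 was not shown to differ between the lines (difference -0.22, SE 0.21, adjusted p = 0.985, edgeR interaction). Before evolution, control CCL218 was lower than control OVCAR3 by a log2 difference of -0.87 (SE 0.16, adjusted p = 0.0437, edgeR), the sole member called between the control groups, where 0.941% of 12324 genes were called higher in CCL218 and 1.08% lower. That difference lost its call without any 1 of the 6 pools (adjusted p 0.0518 to 0.323) and with the length and GC trend removed (-0.669, adjusted p = 0.171). The rise in OVCAR3 lost its call without control L, M or R or HCQ-evolved L or M (1.15 to 1.32, adjusted p 0.00675 to 0.14 over the pools left out), and that in CCL218 without control R or HCQ-evolved L or M (0.92 to 1.09, adjusted p 0.000508 to 0.0735). ADAM8 lies on chromosome 10, 133262420 to 133276868, minus strand.

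ADAM28, a sheddase found in epithelium and lymphocytes, was a scarce transcript. Its control pools held 1.39, 1.70 and 1.26 CPM in OVCAR3 against 0.279, 0.232 and 0.335 CPM in HCQ-evolved pools. Control CCL218 pools held 1.62, 1.52 and 1.07 CPM, and HCQ-evolved CCL218 pools held 0.944, 0.656 and 0.435 CPM. Every HCQ-evolved pool of a line was below every control pool of it. In OVCAR3 it fell, with a log2 fold change of -2.32 (SE 0.33, adjusted p = 0.0216, edgeR). In CCL218 it was -1.06 (SE 0.34, adjusted p = 0.116) without and -1.09 (adjusted p = 0.0439) with the block for plate position, and the interaction was not called (1.29, adjusted p = 0.336).

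ADAM28 met the level rule through its control pools alone, 6 of 6 at 1 CPM or more, so it could be tested only by being higher there, and its call is given as a description. HCQ-evolved OVCAR3 pools had 12 to 20 counts, above the floor of 3. Without any 1 control pool of OVCAR3 it no longer met the rule, and without HCQ-evolved L or M it lost its call (adjusted p 0.00814 to 0.0942 over the pools left out). Its gene lies on chromosome 8, 24294069 to 24359014.

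ADAM10 and ADAM17, the main sheddases of Notch receptors and of TNF and EGFR ligands, were not called in either line. ADAM10 stood at 185.1, 235.6 and 197.6 CPM in control OVCAR3 and at 216.5, 219.6 and 362.8 CPM in HCQ-evolved OVCAR3. In CCL218 it stood at 156.9, 224.1 and 214.6 CPM in control and at 228.8, 260.0 and 265.1 CPM in HCQ-evolved pools. The groups overlapped in OVCAR3 and lay apart in CCL218. Its log2 fold changes were 0.39 (adjusted p = 0.509, edgeR) and 0.34 (adjusted p = 0.247).

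ADAM17 varied more within groups than between them. Control OVCAR3 pools held 13.9, 38.4 and 19.7 CPM and HCQ-evolved OVCAR3 pools 23.1, 20.2 and 62.8 CPM. In CCL218 control pools held 15.4, 48.7 and 43.4 CPM and HCQ-evolved pools 40.6, 45.8 and 47.4 CPM. The log2 fold changes were 0.58 (SE 0.54, adjusted p = 0.65, edgeR) and 0.31 (SE 0.38, adjusted p = 0.629), and they turned to -0.145 without HCQ-evolved OVCAR3 R and to -0.056 without control CCL218 L. IAH1 lies on the opposite strand of 10.3% of its exon bases.

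ADAM9 spread widest. This sheddase stood at 16.1, 119.9 and 56.6 CPM in control OVCAR3 and at 17.4, 163.5 and 156.4 CPM in control CCL218. HCQ-evolved pools held 85.6, 81.4 and 209.1 CPM in OVCAR3 and 159.7, 202.9 and 202.9 CPM in CCL218. Its log2 fold changes of 0.98 and 0.74 were not called (adjusted p = 0.543 and 0.519, edgeR), and leaving out single pools moved them from 0.37 to 1.80 and from 0.23 to 1.12.

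The pools of ADAM9 and ADAM17 are set here beside the length trend. The pools with the highest rho, HCQ-evolved OVCAR3 R (0.513) and control OVCAR3 M (0.468), were the highest of their groups for both genes. Control CCL218 L, with the lowest rho (-0.448), held the lowest value of its group. In control OVCAR3, however, R had the lowest rho (-0.38), and L (rho -0.312) held the lowest values of both genes. For TIMP1, control OVCAR3 L (251.9 CPM) and control CCL218 L (181.0 CPM) were the highest of their groups, while control OVCAR3 R held 136.3 CPM. The part of the length trend in these spreads was not tested. With the trend of length and GC content removed, the changes of ADAM9 were 0.83 in OVCAR3 and 0.67 in CCL218, and those of ADAM17 were 0.39 and 0.20, not called (adjusted p 0.404 to 0.639). With that trend removed, ADAM8 and ADAMTS6 were called in both lines, ADAM28 in OVCAR3 and TIMP2 in CCL218.

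**Figure D3:**
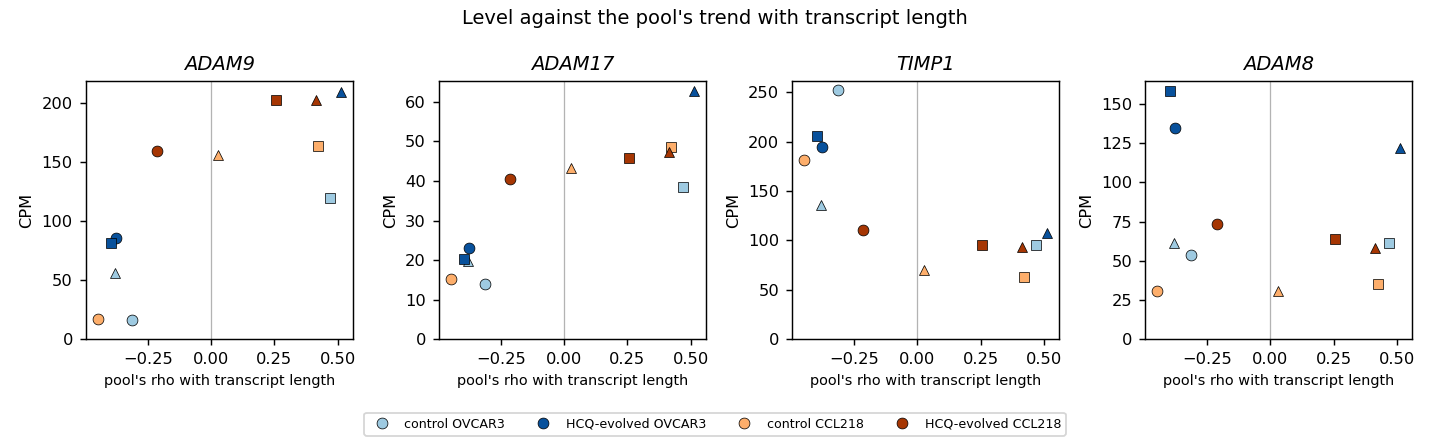
CPM of ADAM9, ADAM17, TIMP1 and ADAM8 in each pool against the Spearman's rho of that pool's deviation with transcript length across genes, with circles, squares and triangles for the L, M and R pools. ADAM9 and ADAM17 are highest at HCQ-evolved OVCAR3 R (rho 0.513), TIMP1 is highest at control OVCAR3 L (rho -0.312), and the HCQ-evolved OVCAR3 pools of ADAM8 hold 121.9 to 158.3 CPM.

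Of the other catalytic ADAMs, ADAM15, an adhesion-binding sheddase, held 100.2 to 140.6 CPM in control and 162.8 to 211.3 CPM in HCQ-evolved OVCAR3 pools. Its log2 fold change of 0.64 there was not called (adjusted p = 0.15, edgeR), and that of 0.15 in CCL218 had overlapping pools. ADAM19, which sheds neuregulins, changed by 0.62 in OVCAR3 (adjusted p = 0.277) and by 0.61 in CCL218 (adjusted p = 0.109, and 0.0263 with the block for plate position). It held 16.3 to 23.1 CPM in control CCL218 and 27.2 to 37.4 CPM in HCQ-evolved CCL218 pools. ADAM22, which lacks an active protease site and binds LGI1, was not called in either line (0.44 and -0.32), and its OVCAR3 value was -0.152 without HCQ-evolved R.

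ADAMTS6, a secreted enzyme related to ADAMTS10 and tied to fibrillin microfibrils, showed the largest fall of the 19 in both lines. It stood at 21.0, 24.1 and 12.3 CPM in control OVCAR3 and at 4.52, 2.89 and 2.13 CPM in HCQ-evolved OVCAR3. In CCL218 it stood at 33.4, 35.3 and 27.4 CPM in control and at 9.28, 7.98 and 10.6 CPM in HCQ-evolved pools. All HCQ-evolved pools of both lines were below all control pools of both lines. The fall in OVCAR3 had a log2 fold change of -2.57 (SE 0.37, adjusted p = 0.0229, edgeR), 5.94-fold lower. In CCL218 it was -1.79 (SE 0.17, adjusted p = 0.00275, edgeR), 3.46-fold lower, and it passed in all 12 alternative fits (-1.95 to -1.68).

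In OVCAR3 the fall of ADAMTS6 lost its call without control L, M or R or HCQ-evolved M (adjusted p 0.0085 to 0.168 over the pools left out, -2.91 to -2.36). The 2 falls were not shown to differ (difference 0.80, SE 0.41, adjusted p = 0.655, edgeR interaction). Control groups were not called apart either (0.74, adjusted p = 0.311). ADAMTS6 spans chromosome 5, 65148738 to 65481920, minus strand.

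ADAMTS7, which cuts cartilage oligomeric matrix protein, ADAMTS13, which trims von Willebrand factor, and ADAMTSL5, a fibrillin-binding protein without a protease domain, were not called. They held 1.91 to 6.52 CPM (ADAMTS7 and ADAMTS13) and 4.80 to 11.1 CPM (ADAMTSL5) in OVCAR3 pools. Their log2 fold changes in OVCAR3 were -0.47, -0.45 and -0.59, and in each case all HCQ-evolved pools were below all control pools. In CCL218 they were -0.03, 0.36 and -0.12 with overlapping pools. ADAMTSL5 held 18.0 CPM in control CCL218 L against 6.81 and 7.90 CPM in the other pools of that group, and its change was 0.442 without that pool. ADAMTS7 has pseudogene copies, so its counts are uncertain.

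Of the 3 membrane-type MMPs with a level, MMP14 was the member whose change differed between the lines. MMP14, the membrane collagenase that activates MMP2 on the cell surface, stood at 18.2, 18.3 and 22.7 CPM in control OVCAR3 and at 12.7, 12.5 and 12.3 CPM in HCQ-evolved OVCAR3. In CCL218 it stood at 26.9, 24.0 and 28.0 CPM in control and at 40.6, 42.9 and 34.1 CPM in HCQ-evolved pools. The groups lay apart in both lines, lower in HCQ-evolved OVCAR3 and higher in HCQ-evolved CCL218. The single changes were not called, at -0.64 in OVCAR3 (SE 0.18, adjusted p = 0.128, edgeR) and 0.57 in CCL218 (SE 0.14, adjusted p = 0.0581, and 0.0421 with the block for plate position).

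The difference between these changes passed. For MMP14 it was 1.24 (CCL218 minus OVCAR3, SE 0.20, adjusted p = 0.0161, edgeR interaction), and for TIMP2, described with the inhibitors, 1.07. These 2 were the members called of 19, where 0.872% of 12613 genes were. With a block for plate position in both lines 0 members passed (adjusted p = 0.158 for MMP14 and 0.21 for TIMP2), where 0.277% of all genes did. Pools of OVCAR3 were not taken to be paired by position, so this fit does not test a pairing there. MMP14 lost its call without control CCL218 M or HCQ-evolved CCL218 L or M (1.13 to 1.33, adjusted p 0.0171 to 0.0728 over the pools left out). MMP14 lies on chromosome 14, 22836560 to 22849041, plus strand.

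MMP15 was the most even of the membrane-type MMPs, at 172.7 to 196.5 CPM in control OVCAR3 and 140.4 to 169.3 CPM in HCQ-evolved OVCAR3. Control CCL218 held 170.2 to 179.5 CPM and HCQ-evolved CCL218 202.8 to 225.2 CPM. Its changes of -0.19 and 0.28 and their difference (0.50, adjusted p = 0.299, edgeR) were not called. MMP24, a membrane-type MMP known from neural tissue, held 6.86, 10.96 and 9.90 CPM in control and 4.07, 3.59 and 2.18 CPM in HCQ-evolved OVCAR3 pools. By edgeR it was not called, with -1.48 in OVCAR3 (SE 0.31, adjusted p = 0.0625) and -0.55 in CCL218 (adjusted p = 0.193). In OVCAR3 it passed without the filter, with DESeq2, with the length and GC trend removed, with all pools in 1 fit and without HCQ-evolved R (adjusted p 0.000371 to 0.0413).

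MMP24OS, encoded on the opposite strand, shares 18.42% of the exon bases of MMP24 and was far more abundant, at 125.6 ± 34.6 CPM (SD, n = 3) in control OVCAR3. MMP24OS was not called in OVCAR3 (-0.19, adjusted p = 0.83, edgeR) or CCL218 (0.23, adjusted p = 0.594). Whether counting used strand is not given in the sources used here, so reads of the pair cannot be told apart.

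MMP7, the matrilysin made by glandular epithelium, was the only secreted MMP to meet the level rule. It stood at 26.5, 32.7 and 35.6 CPM in control OVCAR3 and at 71.0, 103.1 and 42.2 CPM in HCQ-evolved OVCAR3. In CCL218 it stood at 62.3, 54.7 and 57.5 CPM in control and at 71.1, 76.0 and 65.8 CPM in HCQ-evolved pools. HCQ-evolved pools were above control pools in both lines, with a wide spread in HCQ-evolved OVCAR3. The log2 fold changes of 1.20 in OVCAR3 (SE 0.32, adjusted p = 0.114, edgeR) and 0.28 in CCL218 (SE 0.12, adjusted p = 0.203) were not called. In OVCAR3 it passed in the same 5 alternatives as MMP24 (adjusted p 0.00921 to 0.0366). The difference between control groups was not called (0.88 higher in CCL218, adjusted p = 0.0595, edgeR).

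**Figure D4:**
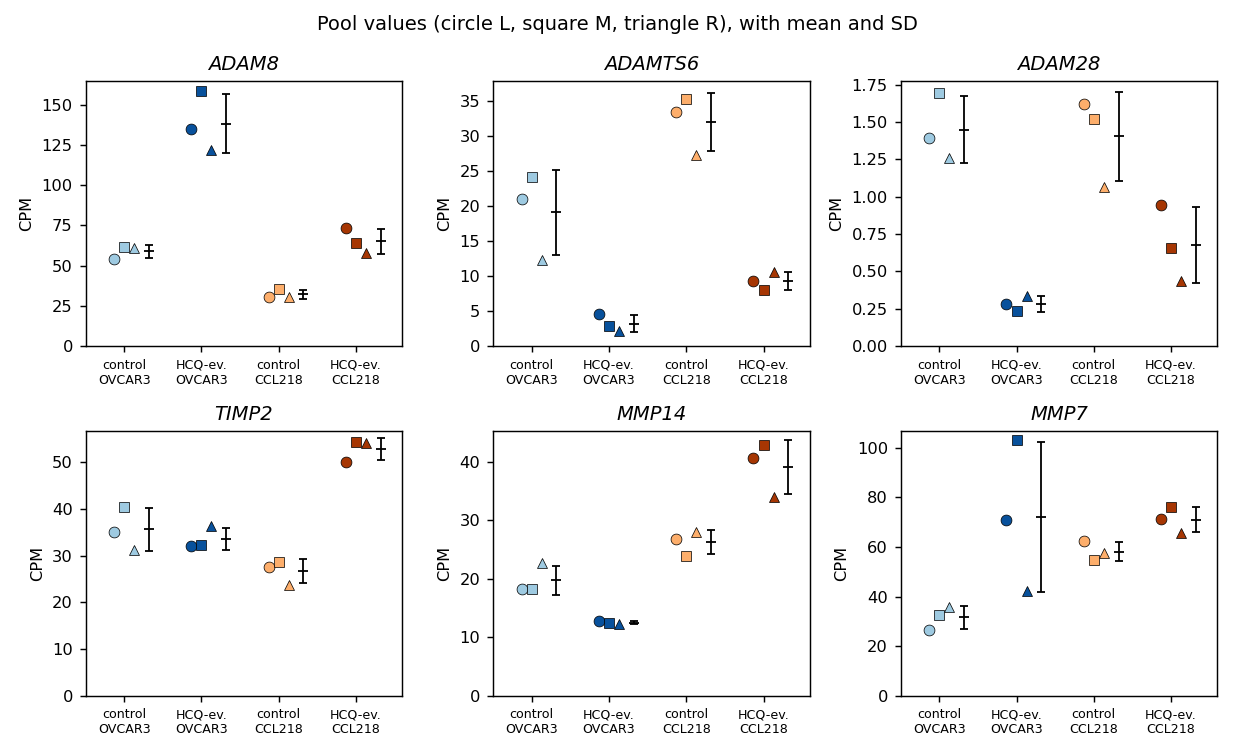
CPM of ADAM8, ADAMTS6, ADAM28, TIMP2, MMP14 and MMP7 in each pool, with circles, squares and triangles for L, M and R pools and a bar for the mean and SD of 3 pools beside each group. TIMP2 rises from 23.8 to 28.6 CPM in control CCL218 to 50.1 to 54.3 CPM after evolution and stays at 31.3 to 40.5 CPM in OVCAR3 pools, while MMP14 lies lower after evolution in OVCAR3 and higher in CCL218.

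Among inhibitors, TIMP2, which also helps MMP14 to activate MMP2, rose in CCL218. It stood at 27.7, 28.6 and 23.8 CPM in control CCL218 and at 50.1, 54.3 and 54.1 CPM in HCQ-evolved CCL218. In OVCAR3 it stood at 35.1, 40.5 and 31.3 CPM in control and at 32.2, 32.2 and 36.3 CPM in HCQ-evolved pools. The CCL218 groups lay far apart and the OVCAR3 groups overlapped. In CCL218 it rose by 0.98 on the log2 scale (SE 0.13, adjusted p = 0.00779, edgeR), or 1.97-fold, and its value in OVCAR3 was -0.07 (SE 0.19, adjusted p = 0.897).

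The difference of 1.07 between these changes of TIMP2 passed the interaction test (SE 0.20, adjusted p = 0.0307, edgeR). It stayed called without control OVCAR3 R, HCQ-evolved OVCAR3 R or control CCL218 L and lost its call without any of the other 9 pools (0.97 to 1.16, adjusted p 0.019 to 0.116 over the pools left out). The rise in CCL218 lost its call without control R or HCQ-evolved M or R (0.90 to 1.04, adjusted p 0.000231 to 0.0735). TIMP2 lies on chromosome 17, 78852977 to 78925387, minus strand. MMP2 itself had at most 8 counts in any pool.

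TIMP1, the most abundant inhibitor, was not called. Control pools held 251.9, 95.3 and 136.3 CPM in OVCAR3 and 181.0, 62.9 and 70.6 CPM in CCL218. HCQ-evolved pools held 195.0, 205.4 and 107.3 CPM in OVCAR3 and 111.0, 95.4 and 93.0 CPM in CCL218. Its changes were 0.09 in OVCAR3 (SE 0.38, adjusted p = 0.933, edgeR) and -0.08 in CCL218 (SE 0.39, adjusted p = 0.917). The CCL218 value was 0.571 without control L, and called there.

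TIMP4 was scarce, with 1.44, 2.58 and 3.81 CPM in control OVCAR3 and 5.07, 3.13 and 3.85 CPM in HCQ-evolved OVCAR3 pools. In CCL218 control pools held 1.30, 1.44 and 2.20 CPM and HCQ-evolved pools 3.61, 2.55 and 3.06 CPM, apart from control. The changes of 0.63 (adjusted p = 0.483, edgeR) and 0.89 (adjusted p = 0.0996) were not called. SYN2, in which TIMP4 lies on the opposite strand with 14.24% of its exon bases shared, had 1 to 11 counts per pool.

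Partners of these enzymes were read from a list of 39 genes: convertases that remove prodomains, carriers of ADAM10 and ADAM17, other inhibitors, the plasmin axis, a clearance receptor, substrates and astacin proteases. In OVCAR3, 28 were tested and 1 passed, TNC, which was higher (3.53, adjusted p = 0.0479, edgeR). Of all genes, 0.647% were called higher there and 1.21% lower. TNC encodes tenascin C, a matrix substrate of MMPs. It stood at 0.516, 0.314 and 0.222 CPM in control and 2.76, 1.66 and 7.33 CPM in HCQ-evolved OVCAR3 pools, so it was tested through its HCQ-evolved pools alone, and 0 of the other 27 were called. In CCL218, 29 were tested, of which 3 rose and 2 fell, against 3.82% and 2.64% of all genes. Without MEP1A, which reached 1 CPM in HCQ-evolved pools alone, 2 rose (LRP1 and TNC) and 2 fell of 28. TNC too met the level rule in CCL218 through its HCQ-evolved pools, as its control pools by themselves did not meet it. With TNC set aside as well, LRP1 was the sole partner that rose. With a block for plate position 8 rose and 2 fell in CCL218, among them all 5 called without it. Of the 8, MEP1A, TNC and IL6R met the level rule through their HCQ-evolved pools, as their control pools by themselves did not. Of all genes, 14.2% were called with that block. CDH1, IL6R, PLAUR, SDC1 and TSPAN5 rose and were called with the block alone (adjusted p 0.0122 to 0.0398, edgeR). The list's median was 0.08 in OVCAR3 and 0.15 in CCL218, against 0.02 and -0.02 for all genes.

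MEP1A, the alpha subunit of the brush border protease meprin, had the smallest p of the list in CCL218. It held 0.0492, 0.174 and 0.171 CPM in control CCL218 and 1.46, 1.95 and 1.59 CPM in HCQ-evolved CCL218 pools, a change of 3.61 (SE 0.40, adjusted p = 0.00475, edgeR). It was tested through its HCQ-evolved pools alone. HCQ-evolved OVCAR3 pools held at most 0.314 CPM, and the change differed between the lines (4.78, adjusted p = 0.0293, edgeR interaction, and 0.0905 with a block for plate position in both lines).

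LRP1, the receptor that takes up proteases bound to their inhibitors, rose in CCL218 from 172.9, 227.8 and 155.2 CPM to 300.9, 322.0 and 333.0 CPM (0.78, adjusted p = 0.0374, edgeR). TNC rose there by 2.30 (adjusted p = 0.0332), from 0.639, 0.957 and 0.384 CPM to 1.97, 5.03 and 2.78 CPM, and its HCQ-evolved pools met the level rule by themselves. RHBDF2, a carrier of ADAM17 to the cell surface, fell in CCL218 from 45.3, 34.8 and 34.3 CPM to 22.9, 21.5 and 25.4 CPM (-0.72, adjusted p = 0.0433, edgeR). CD44, a hyaluronan receptor shed by ADAM10 and MMP14, fell there from 378.4, 488.5 and 435.3 CPM to 239.4, 259.0 and 288.0 CPM (-0.73, adjusted p = 0.0299). For LRP1, RHBDF2 and CD44 the HCQ-evolved and control pools of CCL218 did not overlap.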

How the data were processed

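RNA of 12 pools was analysed from read counts of 28278 genes that the authors deposited after alignment to hg38 (STAR), duplicate removal (RmDup) and counting (featureCounts). Duplicate removal can flatten high counts. Small counts were mostly even (78.9% of those from 1 to 4). Members and lists were chosen with earlier results of these data known. Each line was fitted alone in edgeR 4.0.16 (R 4.3.3, TMM scaling, robust quasi-likelihood F test), for genes that reached 1 CPM in 3 or more libraries, with Benjamini-Hochberg adjustment over all genes tested and a threshold of 0.05. Differences between lines were an interaction in a fit of all pools. Every detailed member was named, with pool values for members called, TIMPs, ADAM10, ADAM17, MMP14 and MMP7. ADAM9, TNC, MMP24, MMP10, MMP1 and MMP25 were given pool values after these had been seen, as were partners that passed.

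Plate position (L, M, R) could pair pools. After removal of group means, pools of the same position correlated across genes at 0.506, 0.233 and 0.195 in CCL218. As each was above 0.1, the position was taken to pair pools in this line. Deviations from a mean of 3 pools are tied to each other, so these correlations do not establish a pairing. Values are from the fit without a block. The study's methods name edgeR with control cells as reference and do not mention a block. The blocked value is given beside a member's CCL218 result where it changed the call, and as a range for partners. Coordinates, lengths and GC content came from GENCODE 44 (90.1% of symbols matched). Alternatives were DESeq2 1.42.0, its size factors, no filter, removal of a length and GC trend, 1 fit of all pools, and each pool left out. Total counts per pool set a floor of 3 counts, which covers counting error only.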

Additional observations from a re-analysis of the deposited data

Results flagged for a closer look

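The change after HCQ evolution differed between the lines for 2 members by the interaction test of edgeR. For MMP14 the log2 fold change in CCL218 exceeded that in OVCAR3 by 1.24 (adjusted p = 0.0161), with 3 of 3 HCQ-evolved pools above control in CCL218 and 3 of 3 below in OVCAR3. For TIMP2 the difference was 1.07 (adjusted p = 0.0307), with 3 of 3 HCQ-evolved pools above control in CCL218 and overlapping pools in OVCAR3. Neither difference was called once plate position was a block in both lines. Pools of OVCAR3 were not taken to be paired by position, so that fit does not test a pairing there.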

How the results depend on the processing

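For OVCAR3, the 3 members called became 5 without the filter, 6 with DESeq2, 7 with the length and GC trend removed, 7 with all 12 pools in 1 fit, 1 with a block for plate position (ADAMTS6), and 0 to 5 with single pools left out. Calls over all genes moved likewise, from 227 to 549, 1105, 858, 1165, 81 and 3 to 557. The block lost ADAM8 (adjusted p = 0.0906) and ADAM28 (0.0711). For CCL218, the 3 members became 8 with DESeq2, 6 with the trend removed, 6 with the block, and 1 to 12 with single pools left out, 12 of them without control L, which called 3047 of all genes against 791. Over all genes these settings called 2172, 1995, 1744 and 102 to 3047. The 2 differences between lines became 1 without the filter, 0 with the block set in both lines, and 0 to 3 with single pools left out. Over all genes the 110 differences became 463 with DESeq2, 322 with the trend removed, 35 with the block and 38 to 212. The 1 member differing between control groups became 0 without the filter, 2 with DESeq2, and 0 to 1 with single pools left out. With the trend removed this was MMP7 in place of ADAM8 (adjusted p = 0.171). Over all genes the 249 became 394, 734 and 25 to 471, and 457 with the trend removed.

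Of 494 values of single members under the alternatives, 399 kept direction and side of the threshold, 34 gained and 42 lost a call, and 19 turned in sign, all of them values not called in the main test. With single pools left out ADAM17 ranged from -0.145 to 1.10 in OVCAR3 and -0.056 to 0.60 in CCL218, ADAM22 from -0.152 to 0.72 in OVCAR3, TIMP1 from -0.173 to 0.54 in OVCAR3 (-0.012, -0.018 and -0.058 among them) and -0.33 to 0.571 in CCL218, TIMP2 from -0.16 to 0.04 in OVCAR3, ADAMTS7 from -0.10 to 0.06 in CCL218 (0.006 among them), and ADAMTSL5 from -0.36 to 0.442 in CCL218. In CCL218 ADAMTS7 was 0.003 without the filter. With the trend removed ADAMTS7 was 0.035, ADAMTSL5 0.061 and TIMP1 0.244 in CCL218, and TIMP2 was 0.006 in OVCAR3. The block gave 0.016 for ADAMTSL5 and 0.098 for TIMP1 in CCL218. The cause of these moves was not tested. Leaving out a pool leaves 2 against 3, and no filter widens the number of genes tested. In OVCAR3, pools of the same position correlated at 0.401, -0.665 and -0.478 after removal of group means, so they shared only a position, and no pairing was assumed. In CCL218 the block changed no call but those of ADAM19, ADAM28 and MMP14. Partners called in CCL218 went from 5 to 10 with the block, where calls over all genes went from 791 to 1744. MEP1A, TNC and IL6R, among the 10, met the level rule through their HCQ-evolved pools. Members called in OVCAR3 went from 3 to 2 without ADAM28. These counts were chosen after seeing the data.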
